A study of Mus musculus with 6 samples.

Results

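The genes described here serve protein folding in the endoplasmic reticulum (ER) and ER-associated degradation (ERAD), the disposal of proteins that fail to fold there. They were chosen by name and known function, as a list of 43 genes, with earlier results of these data known. Counts and medians over the list are therefore descriptions. All 43 were present among the 11866 genes of the deposited table and among the 10770 genes that were tested. RNA-seq was run on HCC3-4 cells, a cultured liver tumour line from mice that carry a MYC transgene. The 3 control libraries (PLKO) came from cells that stably carry the empty pLKO.1-TRC vector, and the 3 knockdown libraries (KD) from cells that stably carry shSf3b3, a short hairpin RNA against the splicing factor subunit Sf3b3. A single hairpin is named, the labels do not say whether the stable cells were clones or pools, and they name no separate cultures within a group. The spread behind every p-value is therefore that of these 6 libraries and may be technical.

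Proteins bound for secretion or for membranes enter the ER through the Sec61 translocon, and are folded there by chaperones such as BiP (Hspa5), by the lectins calnexin and calreticulin, and by disulfide isomerases. Proteins that stay misfolded are recognised by ERAD lectins, pulled back into the cytosol and degraded. When misfolded proteins accumulate, the sensors IRE1 (Ern1), ATF6 and PERK start the unfolded protein response, in which ATF6 and the transcription factor XBP1 raise transcription of many of the genes described here. Hepatocytes secrete large amounts of plasma protein and depend on this machinery.

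Sf3b3, the target of the hairpin, stood between 22.6 and 29.2 FPKM (fragments per kilobase of gene, scaled to library size) in PLKO and between 9.56 and 13.9 FPKM in KD. The log2 fold change of Sf3b3 was -1.26 (SE 0.23, limma adjusted p = 0.037). Libraries held 15140441 to 17566101 reads on listed genes, and a member gene had between 153 and 47820 reads in a library. Of 12 hepatocyte markers 4 were listed (Afp, Krt8, Krt18 and Foxa1), while Alb, Ttr, Apoa1 and Hnf4a were not, so the liver origin of the cells is only partly visible in the table. Of 8 leukocyte markers Cd68 and Cd79a were listed, summing to 10.1 to 42.2 FPKM in PLKO and 46.9 to 98.9 FPKM in KD, and 1 of these was called between the groups, while the defining marker Ptprc was not listed. Of 9 fibroblast markers 6 were listed, the collagen genes Col1a1, Col1a2 and Col3a1 among them, with a sum of 103 to 158 FPKM in PLKO and 53.1 to 76.6 FPKM in KD. Krt19 and Sox9, listed of 4 cholangiocyte markers, summed to 54.1 to 80.7 FPKM in PLKO and 63.2 to 70.6 FPKM in KD. Eng, the 1 listed of 5 endothelial markers, stood at 0.654 to 0.848 FPKM in PLKO and 0.591 to 1.08 FPKM in KD. The part of these marker levels in the results on ER genes was not tested.

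One library stood apart in ER gene expression. PLKO 2 held the highest value of the 6 libraries for 24 of the 43 members (55.8%), against 27.3% of all tested genes. The median member stood 1.29 times higher in PLKO 2 than in the mean of PLKO 1 and PLKO 3, against 1.04 times for all tested genes. Member results that rest on PLKO 2 are therefore given with and without it.

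ER folding and ERAD genes were mostly lower in the knockdown cells, and few of them passed the test. Pdia4, Pdia5 and Sdf2l1 fell (limma adjusted p under 0.05 over all tested genes, the threshold for a call), and no member rose. Without both libraries numbered 3, Dnajb9, Dnajc3 and Sec61g were called higher (limma adjusted p of 0.033, 0.031 and 0.02). That fit called 14 members, 11 of them lower, and 3009 of the 10770 tested genes, 1723 of them lower. With all 6 libraries, calls therefore covered 3 of 43 members, against 1.79% of all tested genes called lower, 1.12% called higher and 2.92% called in either direction. The log2 fold change was below 0 for 32 of the 43 members, against 52.3% of all tested genes. It was below 0 for 6 of the 10 ERAD genes and 5 of the 9 translocon genes, near that share. The median log2 fold change was -0.41 over the members and -0.04 over all tested genes. Without PLKO 2 the median was -0.17, with 26 of 43 members below 0, and all tested genes had a median of -0.01. At an unadjusted p under 0.05 stood 14 members, all lower, against 27.6% of all tested genes (15.9% lower and 11.7% higher).

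The 3 KD libraries lay below the 3 PLKO libraries without overlap for 17 members, and above them for Edem2. Among all tested genes 18.8% lay below, 13.4% above and 32.1% in either direction. With the replicate number as a block in the fit, 9 members were called, all lower: Pdia4, Pdia5, Sdf2l1, Creld2, Canx, Sec61a1, Os9, Sel1l and Xbp1. Those 9 are 20.9% of the members, near the 19.3% of all tested genes called with the block. Of the tested genes 11.1% were called lower with the block and 8.19% higher.

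**Figure D1:**
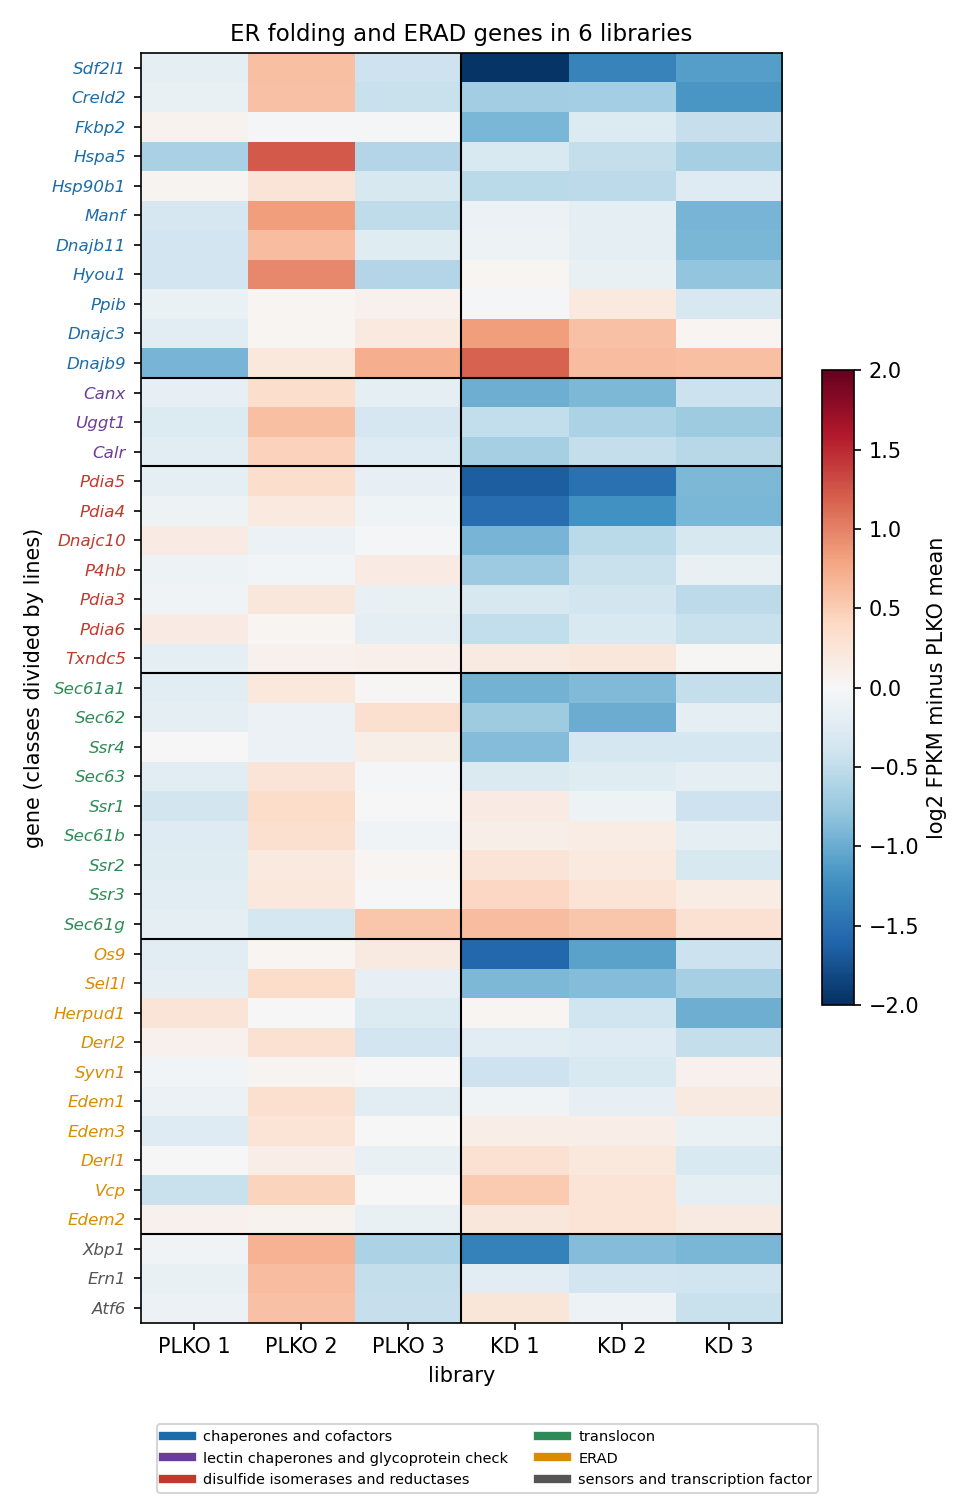
Log2 FPKM of each of the 43 genes in each of the 6 libraries, as the difference from the mean log2 FPKM of the 3 PLKO libraries, with genes grouped by class and sorted by fold change. Blue marks lower and red higher values. The PLKO 2 column is red for most chaperones, lectins and sensors, and the top rows of each class are blue in all 3 KD libraries.

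Together the 43 genes took up 0.831%, 1.12% and 0.760% of all FPKM in PLKO 1, 2 and 3, and 0.736%, 0.673% and 0.676% in KD 1, 2 and 3. The summed share was thus lower in each KD library than in any PLKO library. Hspa5 alone made up 19.6% of the members' sum in PLKO 2, against 8.01% to 11.1% in the other libraries. With Hspa5 left out, the sum ran from 2111 to 2767 FPKM in PLKO and from 1788 to 1884 FPKM in KD, still without overlap.

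The promoters of some of these genes share the ER stress element (ERSE), which reads CCAAT, then 9 bases of any kind, then CCACG. ATF6 together with the factor NF-Y is known to bind this site. Both strands of the 300-base RefSeq promoter windows (250 bases before to 50 after each gene start, GRCm38.p6) were searched, and 37 of the 43 members had a window. The full element was present in 8 of these 37 members (21.6%), against 0.137% of the 27025 genes with a window. The stretches below lie before the gene start and show how the element reads in each member, 5′ to 3′ on the gene's strand, with the element in capitals. Where it lies on the opposite strand it opens with CGTGG and ends with ATTGG.
Hsp90b1, first copy, chr10:86705618-86705676, minus strand: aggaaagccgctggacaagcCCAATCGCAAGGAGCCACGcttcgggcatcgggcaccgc
Hsp90b1, second copy, chr10:86705513-86705571, minus strand: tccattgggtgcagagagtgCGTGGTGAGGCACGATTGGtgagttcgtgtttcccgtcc
Canx, chr11:50325780-50325838, minus strand: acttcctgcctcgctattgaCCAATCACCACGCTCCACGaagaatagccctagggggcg
Calr, chr8:84847055-84847113, minus strand: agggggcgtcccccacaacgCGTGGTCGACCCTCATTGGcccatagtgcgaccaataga
Creld2, chr15:88819500-88819558, plus strand: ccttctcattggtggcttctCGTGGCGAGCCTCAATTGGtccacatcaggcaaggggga
Pdia6, chr12:17266471-17266529, plus strand: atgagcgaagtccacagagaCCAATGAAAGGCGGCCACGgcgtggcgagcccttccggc
Dnajc3, chr14:118937807-118937865, plus strand: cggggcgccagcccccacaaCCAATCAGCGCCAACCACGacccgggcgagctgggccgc
Syvn1, chr19:6046512-6046570, plus strand: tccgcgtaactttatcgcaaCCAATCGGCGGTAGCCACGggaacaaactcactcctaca

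Hspa5 holds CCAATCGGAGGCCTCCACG, 65 to 47 bases before its RefSeq start. Of the 8 members with the full element 7 had a log2 fold change below 0, Dnajc3 being the exception, with a median of -0.46 and no call. The other 29 members with a window had a median of -0.40, with 21 below 0 and 3 called. Thus Pdia4, Pdia5 and Sdf2l1, the members that fell, did not hold the full element in this window. Pdia4 holds it without its last base (found in 12 of the 37 members and in 0.429% of all genes with a window), a shorter form that was searched after the values were seen.
Pdia4, chr6:47813582-47813639, minus strand: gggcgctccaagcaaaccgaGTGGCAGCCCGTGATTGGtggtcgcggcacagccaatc

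The related ERSE-II element (ATTGG, any 1 base, CCACG) was present in Herpud1 and Dnajb11 (5.41% of the members, 0.0444% of genes), with log2 fold changes of -0.44 and -0.40. The XBP1 element TGACGTGG was present in Txndc5 and Vcp (5.41% of the members, 0.714% of genes), which had log2 fold changes of 0.14 and 0.20. These matches describe letters in a window, and binding was not measured.

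Disulfide isomerases were the class with the most calls. Pdia4 fell from 66.2 ± 8.08 to 28.8 ± 6.15 FPKM and Pdia5 from 11.5 ± 2.54 to 4.58 ± 1.32 FPKM (SD, n = 3), and 6 of the 7 members were lower in every KD library than in any PLKO library, as were 18.8% of all tested genes. The class had a median log2 fold change of -0.44, and of -0.47 without PLKO 2. The calls are 2 of the 7 members, and 2 of 7 with the block, against 2.92% and 19.3% of all tested genes.

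Pdia4 (ERp72) is a disulfide isomerase on chromosome 6 (47796141 to 47813430, GRCm38). Its level was 61.2, 75.5 and 61.9 FPKM in PLKO 1, 2 and 3 and 22.8, 28.6 and 35.1 FPKM in KD 1, 2 and 3. The highest KD library was thus well below the lowest PLKO library. The log2 fold change was -1.21 (SE 0.22, 95% confidence interval -1.72 to -0.71, limma adjusted p = 0.038), and -1.12 without PLKO 2.

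Pdia5, an isomerase reported to act on ATF6, lies on chromosome 16 (35397312 to 35490873). It was present at low levels, with 9.91, 14.4 and 10.1 FPKM in PLKO and 3.62, 4.03 and 6.09 FPKM in KD. The groups did not overlap, on 443 to 666 reads in PLKO and 153 to 294 reads in KD. Its log2 fold change was -1.34 (SE 0.27, interval -1.96 to -0.72, limma adjusted p = 0.044), and -1.17 without PLKO 2.

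Dnajc10 (ERdj5) reduces disulfide bonds of proteins bound for degradation. Its values were 53.0, 43.7 and 46.0 FPKM in PLKO and 24.8, 32.6 and 37.8 FPKM in KD, without overlap and with PLKO 2 the lowest control. At a log2 fold change of -0.60 (SE 0.22) it was not called (limma adjusted p = 0.12). P4hb, Pdia3 and Pdia6, the abundant general isomerases, stood at -0.44, -0.41 and -0.41 on the log2 scale (limma adjusted p of 0.20 to 0.21). Txndc5 was the member above 0, at 0.14 (interval -0.29 to 0.57).

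**Figure D2:**
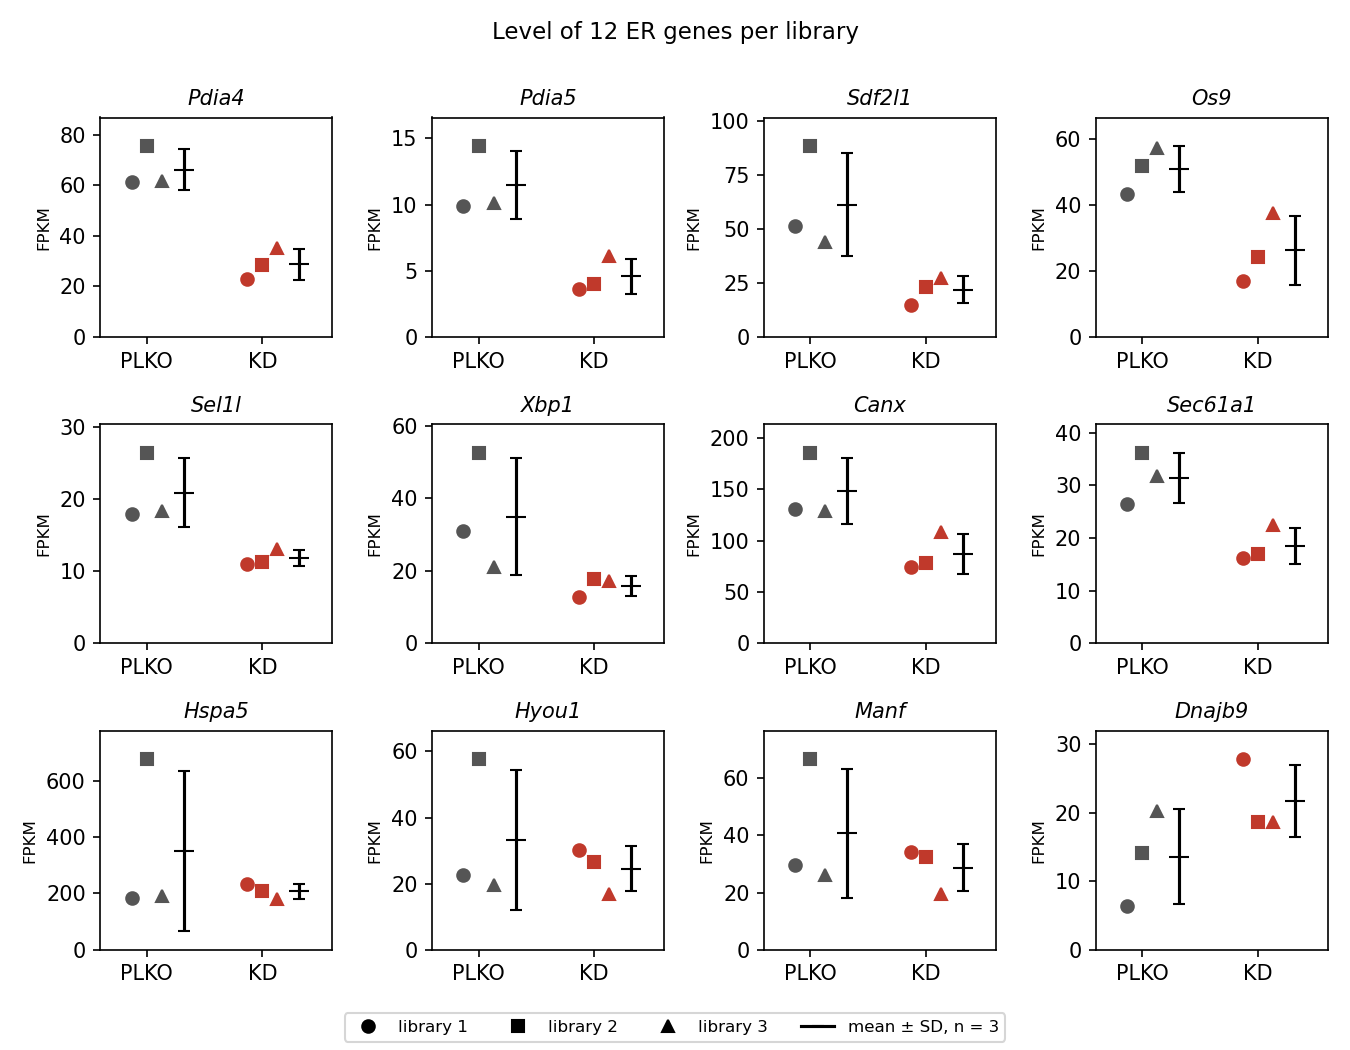
FPKM of 12 ER genes in the 3 PLKO (grey) and 3 KD (red) libraries on linear axes from 0; the symbol gives the library number, and the bar beside each group the mean ± SD of 3 libraries. Pdia4, Pdia5, Sdf2l1, Os9, Sel1l, Xbp1, Canx and Sec61a1 show no overlap between groups, whereas the PLKO mean of Hspa5, Hyou1 and Manf is carried by PLKO 2.

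Chaperones and their cofactors held 1 call. Sdf2l1 fell, and 9 of the 11 members were below 0, with a median log2 fold change of -0.41. Of all tested genes 2.92% were called and 52.3% lay below 0. Without PLKO 2 the median of the class was -0.04. The block called Creld2 as well, which made 18.2% of the class, against 19.3% of all tested genes.

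Sdf2l1 is a partner of the ER cochaperone Dnajb11 and lies on chromosome 16 (17130138 to 17132383). It measured 51.4, 88.4 and 43.8 FPKM in PLKO and 14.9, 23.1 and 27.3 FPKM in KD. The groups did not overlap, although PLKO 2 was 1.86 times the mean of the other controls. The log2 fold change was -1.47 (SE 0.32, interval -2.19 to -0.74, limma adjusted p = 0.049), the lowest of the 43, and -1.17 without PLKO 2.

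Creld2, a secreted ER stress protein, stood at 28.6, 47.2 and 23.3 FPKM in PLKO and 19.5, 19.8 and 14.1 FPKM in KD. These groups do not overlap, but PLKO 3 and KD 2 lie close together. The difference was -0.85 on the log2 scale (with an SE of 0.29, limma adjusted p = 0.11, but 0.023 under the block), and -0.56 without PLKO 2. Fkbp2, a prolyl isomerase, had 44.9, 41.4 and 41.8 FPKM in PLKO and 22.7, 35.1 and 31.1 FPKM in KD, again without overlap (log2 fold change -0.55, SE 0.22, limma adjusted p = 0.14).

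Hspa5 (BiP), the main ER chaperone of the HSP70 family and the member with the highest PLKO mean, is described here because its values were seen to rest on 1 library. PLKO 2 had 676 FPKM, against 184 in PLKO 1, 192 in PLKO 3 and 182 to 233 in the KD libraries. Without PLKO 2, the controls fall inside the KD range. Over all libraries the log2 fold change was -0.48 (interval -1.50 to 0.54, limma adjusted p = 0.51), and 0.14 without PLKO 2.

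The HSP70 relative Hyou1, the cofactor Manf and the cochaperone Dnajb11 were also high in PLKO 2, at 2.73, 2.40 and 1.91 times the mean of the other controls. Their log2 fold changes were -0.30, -0.41 and -0.40, and 0.18, 0.01 and -0.09 without PLKO 2. Hyou1 and Manf thus changed sign without this library. Hsp90b1 (GRP94) had 146, 167 and 112 FPKM in PLKO and 96.5, 97.7 and 117 FPKM in KD, overlapping by KD 3 and PLKO 3 alone. Its log2 fold change was -0.44 (limma adjusted p = 0.22).

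Dnajb9 (ERdj4) and Dnajc3 (p58IPK), J-domain cochaperones of BiP, were the class members above 0. Dnajb9 had 6.44, 14.2 and 20.3 FPKM in PLKO and 27.9, 18.8 and 18.7 FPKM in KD. The KD mean was 0.80 higher on the log2 scale (interval -0.09 to 1.69, limma adjusted p = 0.22), 0.33 higher without PLKO 1 and 1.26 higher without both libraries numbered 3. The PLKO values spread more than 3 times, and PLKO 3 lies inside the KD range. Dnajc3 had a log2 fold change of 0.48 (interval -0.09 to 1.06, limma adjusted p = 0.24). Ppib, the ER cyclophilin, had a log2 fold change of -0.06 (interval -0.53 to 0.41).

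The lectin chaperones and the glucosyltransferase that returns unfolded glycoproteins to them were lower in every KD library than in any PLKO library. Of all tested genes 18.8% lay below without overlap, and 52.3% had a log2 fold change below 0. All 3 members, Canx, Calr and Uggt1, lay below 0, with a median log2 fold change of -0.62, and of -0.33 without PLKO 2. No member was called by limma (2 at an unadjusted p under 0.05, against 27.6% of all tested genes) or by voom on recovered reads. The block called Canx, 33.3% of the class against 19.3% of all tested genes.

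Canx (calnexin), the membrane-bound lectin, had 131, 186 and 129 FPKM in PLKO and 73.8, 78.1 and 109 FPKM in KD. KD 3 came nearest to the controls. Canx differed by -0.77 on the log2 scale (with an SE of 0.24, limma adjusted p = 0.088, but 0.041 under the block), and -0.60 without PLKO 2. Calr (calreticulin), the soluble lectin, had 188, 299.8 and 181 FPKM in PLKO and 137, 156 and 148 FPKM in KD. The log2 fold change of -0.56 (SE 0.24, limma adjusted p = 0.16) was -0.33 without PLKO 2. Uggt1, which adds glucose back to unfolded glycoproteins, had 10.5, 19.4 and 10.1 FPKM in PLKO and 9.03, 8.17 and 7.75 FPKM in KD. The gap between its groups was small except for PLKO 2, and its log2 fold change was -0.62 (SE 0.28, limma adjusted p = 0.19) and -0.31 without PLKO 2.

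**Figure D3:**
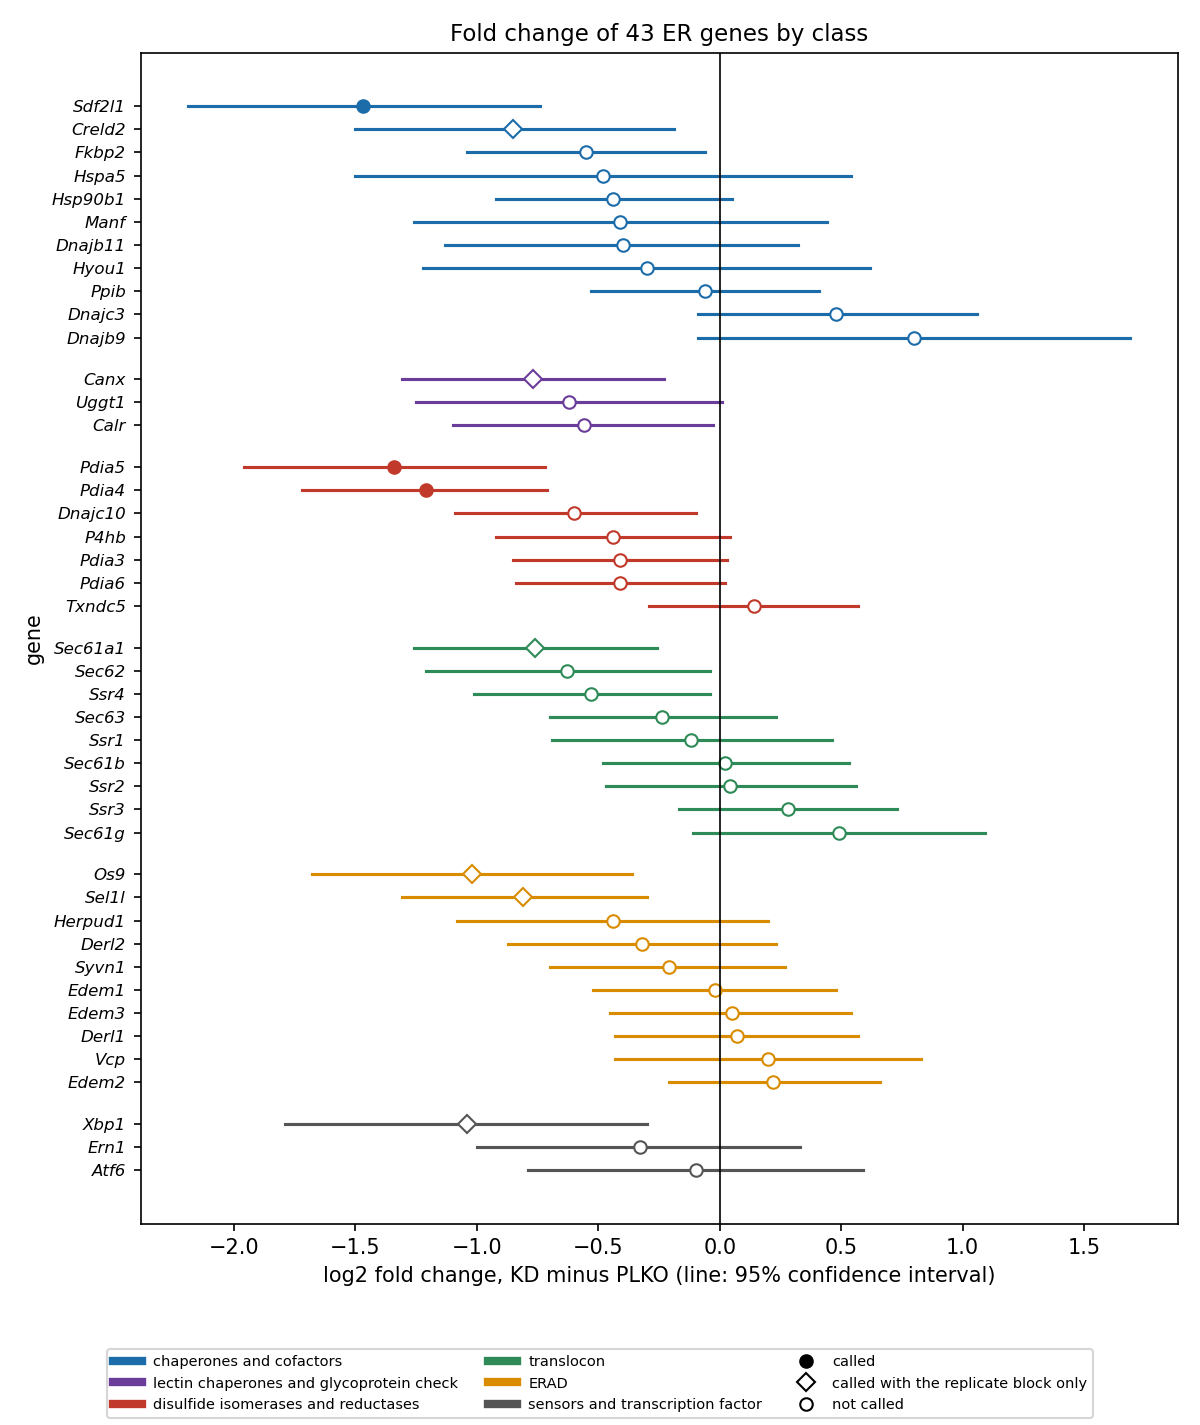
Log2 fold change (KD minus PLKO) of the 43 genes with 95% confidence intervals from limma, grouped by class. Filled circles mark the 3 called genes (Sdf2l1, Pdia4 and Pdia5), diamonds the 6 called with the replicate block only, and open circles the others.

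No ERAD gene was called. Os9 and Sel1l, which act in one complex, were lower in every KD library than in any PLKO library. Those 2 are 20% of the class, near the 18.8% of all tested genes. Edem1, Edem3, Derl1 and Vcp had log2 fold changes between -0.02 and 0.20. Over the 10 ERAD genes the median was -0.12 on the log2 scale, and -0.02 without PLKO 2. Of them 6 lay below 0, against 52.3% of all tested genes. No member was called by limma (2 at an unadjusted p under 0.05, against 27.6% of all tested genes) or by voom. The block called Os9 and Sel1l, 20% of the class against 19.3% of all tested genes.

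Os9 is the lectin that hands misfolded glycoproteins to the Sel1l and Syvn1 ubiquitin ligase complex. It had 43.4, 51.6 and 57.3 FPKM in PLKO and 17.0, 24.1 and 37.5 FPKM in KD. The KD libraries differed among themselves by more than 2 times but stayed below the controls. Os9 differed by -1.02 on the log2 scale (with an SE of 0.29, limma adjusted p = 0.075, but 0.011 under the block), and leaving out PLKO 2 moved this by less than its SE.

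Sel1l, the adaptor of that ligase, had 18.0, 26.5 and 18.4 FPKM in PLKO and 11.1, 11.3 and 13.1 FPKM in KD, without overlap. Sel1l differed by -0.81 on the log2 scale (with an SE of 0.22, limma adjusted p = 0.071, but 0.029 under the block), and -0.63 without PLKO 2. The ligase Syvn1 (HRD1) itself had a log2 fold change of -0.21 (interval -0.70 to 0.27). The values of the adaptor and of the ligase were not tested against each other.

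Herpud1, a membrane scaffold of the ligase complex, had 96.7, 81.9 and 67.2 FPKM in PLKO and 83.7, 61.6 and 41.1 FPKM in KD, with overlap (log2 fold change -0.44, limma adjusted p = 0.33). This was -0.17 without KD 3 and -0.69 without KD 1. The rhomboid-like channel subunits Derl2 and Derl1 had log2 fold changes of -0.32 and 0.07. Of the mannosidase-like Edem1, Edem2 and Edem3, Edem2 had 11.2, 11.1 and 9.54 FPKM in PLKO and 12.4, 12.7 and 11.98 FPKM in KD. It was the single member whose KD libraries all lay above the controls, by a log2 fold change of 0.22 (interval -0.21 to 0.66). Vcp, the ATPase that extracts proteins from the membrane, ran from 76.4 to 141 FPKM in PLKO and from 91.5 to 149 FPKM in KD (log2 fold change 0.20, interval -0.43 to 0.83).

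No translocon gene was called either. Sec61a1 and Ssr4 were lower in every KD library than in any PLKO library, 22.2% of the class against 18.8% of all tested genes. Sec62 was lower with overlap, and Sec61b, Ssr2, Ssr3 and Sec61g had log2 fold changes from 0.02 to 0.49. The median over the 9 genes was -0.12 on the log2 scale, and 0.07 without PLKO 2. Neither limma (3 at an unadjusted p under 0.05, against 27.6% of all tested genes) nor voom called a member. The block called Sec61a1, 11.1% of the class against 19.3% of all tested genes.

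Sec61a1, the pore-forming subunit, had 26.5, 36.1 and 31.7 FPKM in PLKO and 16.3, 16.9 and 22.5 FPKM in KD. The difference was -0.76 on the log2 scale (with an SE of 0.22, limma adjusted p = 0.076, but 0.032 under the block), and -0.66 without PLKO 2. The small subunits of the same channel stood at 0.02 for Sec61b (interval -0.48 to 0.53) and 0.49 for Sec61g (interval -0.11 to 1.09), and the difference between subunits was not tested. Sec62, which serves entry after translation, had 34.2, 35.8 and 48.4 FPKM in PLKO and 23.7, 19.7 and 34.3 FPKM in KD, so that KD 3 reached the lowest control (log2 fold change -0.63, SE 0.26, limma adjusted p = 0.16). Its partner Sec63 had a log2 fold change of -0.24.

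Ssr1 to Ssr4 encode the translocon-associated protein complex. Ssr4 had 28.1, 26.0 and 30.7 FPKM in PLKO and 15.5, 22.0 and 22.1 FPKM in KD, without overlap (log2 fold change -0.53, SE 0.22, limma adjusted p = 0.16). The log2 fold changes of Ssr1, Ssr2 and Ssr3 were -0.12, 0.04 and 0.28. Subunits of this complex thus lay on both sides of 0, a difference that was not tested.

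Xbp1 had the lowest log2 fold change of the 3 genes that sense and signal misfolding. All 3 genes were highest in PLKO 2 and below 0, with a median log2 fold change of -0.33, and of -0.02 without that library. No member was called by limma (1 at an unadjusted p under 0.05, against 27.6% of all tested genes) or by voom. The block called Xbp1, 33.3% of the class against 19.3% of all tested genes.

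Xbp1, on chromosome 11 (5520659 to 5525893), encodes the transcription factor whose mRNA IRE1 splices. It had 31.1, 52.6 and 21.0 FPKM in PLKO and 12.7, 17.7 and 17.3 FPKM in KD. The groups did not overlap, and PLKO 3 was the control nearest to KD. Xbp1 differed by -1.04 on the log2 scale (with an SE of 0.33, interval -1.79 to -0.30, limma adjusted p = 0.091, but 0.018 under the block), and -0.70 without PLKO 2. A value per gene does not separate spliced from unspliced Xbp1 mRNA.

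Ern1, which encodes IRE1, had 7.82, 13.3 and 6.20 FPKM in PLKO and 7.39, 6.62 and 6.57 FPKM in KD. PLKO 1 and PLKO 3 enclose the KD values, and the log2 fold change of -0.33 (limma adjusted p = 0.48) was -0.02 without PLKO 2. Atf6 had 13.9, 22.8 and 10.9 FPKM in PLKO and 17.9, 14.2 and 11.1 FPKM in KD, with full overlap. Its log2 fold change was -0.10 (interval -0.79 to 0.59), and 0.19 without PLKO 2.

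**Figure D4:**
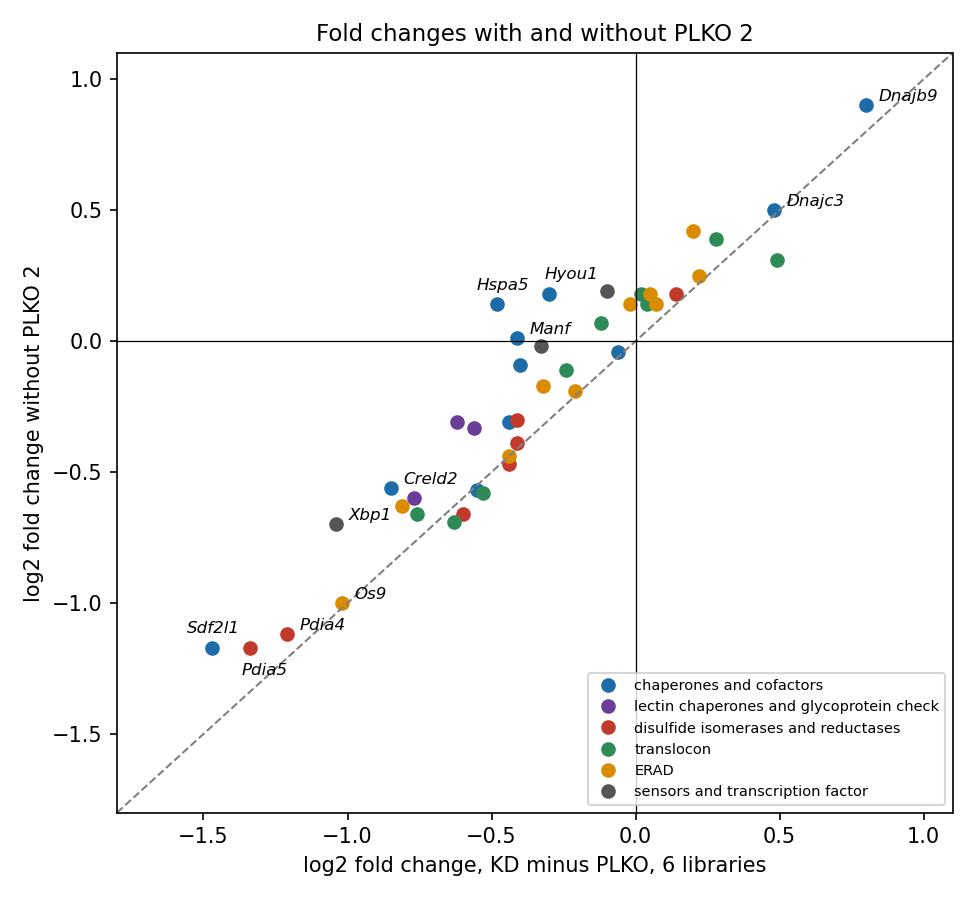
Log2 fold change (KD minus PLKO) of the 43 genes from all 6 libraries (horizontal axis) and without PLKO 2 (vertical axis), coloured by class; the dashed line marks equal values. Hspa5, Hyou1, Manf, Atf6, Ssr1 and Edem1 cross 0, whereas Pdia4, Pdia5 and Sdf2l1 lie between -1.17 and -1.12 without PLKO 2.

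The calls on Pdia4, Pdia5 and Sdf2l1 also depended on which libraries were used. Without PLKO 1, PLKO 2, KD 1 or KD 2 none of the 3 passed, with limma adjusted p of 0.12 to 0.19 and log2 fold changes from -1.56 to -1.06. Those 4 fits called no gene among all tested, with 1793 to 2315 genes at an unadjusted p under 0.05. All 3 passed without PLKO 3 (adjusted p of 0.027 to 0.034) and without KD 3 (0.016 to 0.023).

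Other genes of the ER were counted from a list of the remaining folding catalysts, glycosylation, targeting and degradation genes. Of the 129 listed and tested genes 6 fell and none rose, 4.65% against 2.92% of all tested genes. The median log2 fold change of the list was -0.22, and -0.15 without PLKO 2, against -0.04 and -0.01 for all tested genes. Below 0 lay 91 of the list (70.5%), against 52.3% of all tested genes. PLKO 2 was the highest library for 43.4% of the list, against 27.3% of all tested genes. With the block 22 were lower and 2 higher, 18.6% of the list against 19.3% of all tested genes. Among 38 other folding genes Cnpy2, a saposin-like ER protein, fell from 48.0 ± 5.86 (SD, n = 3) to 14.2 ± 4.01 FPKM (log2 fold change -1.79, limma adjusted p = 0.029). Txndc12, a thioredoxin-like ER protein, fell from 44.0 ± 5.93 to 14.4 ± 6.67 FPKM (-1.70, limma adjusted p = 0.038). Serpinh1 (HSP47), the collagen chaperone, fell from 167 ± 16.3 to 94.1 ± 0.834 FPKM (-0.82, limma adjusted p = 0.0498). In the same libraries the listed fibroblast markers had a lower sum in KD, and none of them was called. A link to Serpinh1 was not tested.

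Targeting, signal peptidase and membrane insertion genes held 2 calls among 32 tested, 6.25% against 2.92% of all tested genes. Tmco1 and Ccdc47, components of an insertion complex at the translocon, fell from 16.1 ± 1.64 to 7.73 ± 0.604 FPKM and from 36.6 ± 5.86 to 18.0 ± 2.82 FPKM (log2 fold changes -1.05 and -1.02, limma adjusted p = 0.039 and 0.046). None of 14 oligosaccharyltransferase and glucosidase genes was called by limma or by voom. At an unadjusted p under 0.05 stood 4 of them, against 27.6% of all tested genes. With the block 2 were called, 14.3% against 19.3% of all tested genes. Krtcap2 stood at -1.11 (limma adjusted p = 0.062, but 0.0085 under the block). Its PLKO 2 value was 1.9 times the mean of PLKO 1 and PLKO 3. Eif2ak3, which encodes the third sensor PERK, had 6.57, 6.89 and 7.35 FPKM in PLKO and 12.5, 11.9 and 10.8 FPKM in KD. The groups do not overlap, in the direction opposite to Xbp1, with a log2 fold change of 0.75 (SE 0.20, limma adjusted p = 0.063, but 0.032 under the block).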

How the data were processed

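The authors deposited 1 table of log2 FPKM for 6 libraries, as read from its values, which run from -7.85 to 13.17. The submitters' processing notes name GRCm38 as the genome build and FastQC 0.11.7 as a tool. Which software aligned and counted the reads, whether strand was used and how the 11866 genes were selected is not given in the sources used here. Low values hold a prior of 2.0 reads on average, and the steps above it gave whole reads (tolerance 0.01 reads) with annotated exonic lengths for 11202 genes. For the other 664 the length was searched until the reads came out whole, so their agreement is no check. Depths in the text are such reads, which also entered 1 alternative.

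Groups were compared with limma 3.58.1 under R 4.3.3 with the group alone in the model and a trended prior variance, fitted to the deposited log2 values. It covered 10770 genes whose mean FPKM reached 1. Levels were converted back to linear FPKM. Benjamini-Hochberg adjusted p-values under 0.05 over all tested genes were called. The code was tested on simulated data.

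Library numbers were checked as pairs by the correlation of deviations from the group means over genes (0.18, 0.29 and 0.50 for the pairs 1, 2 and 3, all above the limit of 0.1). The pairing comes from these correlations and not from a label. PLKO 1 with KD 2 (0.27) and PLKO 2 with KD 1 (0.30) correlated no less than the pairs 1 and 2. The check therefore does not tell pairs 1 and 2 from the crossed ones, and only pair 3 stood above every crossed pair. The block is given where it changes a call.

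The members and lists were chosen with earlier results of these data known. Values per library are given for called members, for Ern1, Atf6 and Xbp1, for the 3 members with the lowest p in each class, and for some others because of their values (Hspa5, Hsp90b1, Dnajb9, Edem2, Eif2ak3). Coordinates are from GENCODE M21 and promoters from RefSeq (GRCm38.p6). Alternatives covered scale, filters, scaling, variance model, weights, the block, left-out libraries and recovered reads. One called gene among the other ER genes is counted and not reported here.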

Additional observations from a re-analysis of the deposited data

How the results depend on the processing

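With all 6 libraries, 3 members and 314 of all tested genes were called. The number of members was the same on the log2(FPKM + 1) scale, without a filter, with a minimum mean FPKM of 5, and with quantile normalization or median centring. With the replicate block 9 members and 2080 genes were called, and without both libraries numbered 3 the counts were 14 (11 lower) and 3009. Without the mean-variance trend they were 0 and 151, with 12 members and 2918 genes at an unadjusted p under 0.05. With array weights, whose estimation stopped short of its tolerance, they were 26 (19 lower) and 6030. With voom and TMM scaling on recovered reads 1 member (Pdia4) and 306 genes were called. Leaving out 1 library gave 0 to 8 members and 0 to 1744 genes. Besides the 3 members, Canx, Sec61a1, Sec62, Sel1l and Os9 passed without KD 3, and Xbp1 without PLKO 3. The members' median log2 fold change was -0.41, and ran from -0.51 (without PLKO 3) to -0.17 (without PLKO 2). Of 320 log2 fold changes of 20 members followed over 16 alternatives, 3 changed sign: Hspa5 ran from -0.80 to 0.14 and Atf6 from -0.33 to 0.19 when 1 library was left out, with Atf6 at 0.07 without KD 3. The 20 were the called members, Ern1, Atf6, Xbp1, Hspa5, Dnajb9 and the 3 members with the lowest p in each class. Sign also changed for members outside the 20 when 1 library was left out, among them Hyou1, Manf, Ssr1 and Edem1. The cause of these changes was not tested. With 153 reads in KD 1, Pdia5 had the fewest reads of any member in a library, which limits the precision of its value.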

Other observations

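Fold change had a weak rank correlation with exon count and exonic length over the ER genes. Overlapping exons of all transcripts of a gene were merged first, so the count is not that of a single transcript. A role of exon number was not tested. Over the 43 members Spearman's rho of the log2 fold change was -0.07 with the number of exons and 0.18 with exonic length, and over 10433 tested genes with 1 matched symbol it was -0.06 and 0.08. Genes share the same 6 libraries, so these values are descriptions. Of the 43 members 14 share exonic bases with a gene on the opposite strand, among them Sec61a1 (549 bases), Sec62 (509 bases) and Ppib (825 bases), and the use of strand is not given, so reads of such pairs cannot be told apart. Pdia5 and Sdf2l1 share no exonic base with another annotated gene, and Pdia4 shares 14 bases with Mir704 on its own strand.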
